A study of Mus musculus with 15 samples.

Results

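The 10 genes described here encode the MHC class II antigen presentation pathway of the mouse: the chains of the presenting molecules (H2-Aa, H2-Ab1, H2-Eb1), the invariant chain (Cd74), the peptide exchange factor H2-DM (H2-DMa, H2-DMb1, H2-DMb2), its modulator H2-DO (H2-Oa, H2-Ob) and the master regulator Ciita. They were chosen by name, by matching the gene identifiers of the count table to symbols in the GENCODE M21 annotation. All 10 were found among the 33340 genes of the table, and all 10 were among the 17457 genes that had enough counts to be tested. Whole-lung RNA-seq was available from 15 libraries of C57BL/6 mice, 4 each from day 0, day 7 and day 14 and 3 from day 21 of bleomycin, a DNA-damaging drug that injures and scars the lung. By the study's methods the drug was instilled once into the trachea, at 5 U/kg and under anesthesia, in male mice aged 10 to 12 weeks. In the labels, day 0 replicates 1 to 3 are titled as controls and have "none" as their treatment. The title of day 0 replicate 4 calls it a control but its treatment label gives bleomycin. It stayed in day 0 here, and the calls of H2-DMb1 and H2-Ob are also given without it. Day 0 ranges include it unless said otherwise. The design text of the series states fewer replicates for each time point than the titles do. Nothing in the labels says that the libraries came from separate animals, and p-values then measure only the spread between these samples.

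MHC class II molecules carry peptides from engulfed proteins to the cell surface, where CD4 T cells read them. The alpha and beta chains assemble on the invariant chain, which cathepsins cut down to a short fragment that H2-DM then replaces with a peptide, while H2-DO, best known from B cells, holds H2-DM back. Dendritic cells, B cells and macrophages carry the pathway constitutively or after interferon-gamma, through the transactivator CIITA, and in the lung alveolar type 2 cells carry it as well.

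The library totals lay between 15652008 and 18020661 counts, so depth differed little between days. The share of counts from mitochondrial genes was uneven, at 2.03% to 2.15% in the 4 day 7 libraries and 2.102% in day 14 replicate 1 against 3.74% to 4.14% in the other 3 day 14 libraries. At day 0 it was 2.28% and 2.31% in replicates 1 and 2 but 4.22% and 4.05% in replicates 3 and 4, and day 21 spanned 2.66% to 4.01%. Lung markers were present throughout: the summed level of 6 lung identity genes (Sftpc, Ager, Scgb1a1, Foxj1, Pecam1 and Hopx) was 44890 to 59610 CPM at day 0 and 8094 to 11620 CPM at day 21, and 2, 4 and 3 of the 6 fell at days 7, 14 and 21 against day 0 while none rose. By the rule for calls given below, 7.36%, 11.2% and 10.1% of all tested genes fell on these days. CPM is the depth-scaled unit of counts, here with TMM factors for the library sizes.

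The class II genes are known for a shared promoter layout, in which an X box is followed by a Y box, a reversed CCAAT element, and the RefSeq promoter table (GRCm38.p6) held 7 of the 10 members. H2-Ab1, Cd74 and Ciita were not in it. In the 250 bases before the start site, 6 of these 7 carried the letters TGATTGG, the core of the Y box, beginning 45 to 92 bases before the start. The share of all 32851 promoters with TGATTGG on either strand was 7.23%. All 6 also carried AAC, 3 letters of the X box, 23 to 26 bases before the TGATTGG, a layout (20 to 30 bases allowed, either strand) found in 0.91% of all promoters. These letters are so well known from class II genes that their presence here is a description and not a test. The windows of 5 members are printed from 5′ to 3′ to show this layout in presenting, exchange and modulator chains, with AAC and TGATTGG in capitals:
H2-Aa, chr17:34287857-34287919, minus strand: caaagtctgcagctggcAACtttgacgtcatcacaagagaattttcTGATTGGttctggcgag
H2-Eb1, chr17:34305761-34305822, plus strand: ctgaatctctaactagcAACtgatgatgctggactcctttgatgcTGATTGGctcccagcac
H2-DMb2, chr17:34145111-34145173, plus strand: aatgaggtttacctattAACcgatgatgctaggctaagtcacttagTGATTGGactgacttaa
H2-Oa, chr17:34092288-34092340, plus strand: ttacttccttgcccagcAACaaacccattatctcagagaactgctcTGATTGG
H2-Ob, chr17:34238803-34238862, plus strand: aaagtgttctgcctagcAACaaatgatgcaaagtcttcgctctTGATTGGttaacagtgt
Where more than 1 AAC lay in the allowed range, as in H2-Oa, the one farther from TGATTGG is in capitals. By GENCODE M21 the H2-Aa and H2-Ob windows overlap no transcript, the H2-Eb1 window lies in an intron of Gm20513 and the H2-DMb2 window in an intron of a longer H2-DMb2 model. The H2-Oa window reaches 1 base into its first exon and lies otherwise in an intron of the antisense gene BC051537. The H2-DMb1 window, which lies within an exon of a longer H2-DMb1 model and is not printed, was identical to that of H2-DMb2 at 54 of 63 bases. For H2-DMa, which has 2 start sites in the table, the letters TGATTGG are not in either window.

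Of the 10 genes, 8 lie on chromosome 17 between positions 34092340 and 34316674 of mm10, in the order H2-Oa, H2-DMa, H2-DMb2, H2-DMb1, H2-Ob, H2-Ab1, H2-Aa and H2-Eb1. Cd74 lies on chromosome 18 and Ciita on chromosome 16 (10480059 to 10528418). Parts of the exons are shared: 10.4% of the exon length of H2-DMa overlaps Brd2 on the other strand, which had 3966 to 5286 counts a library, and 22.8% of H2-Oa overlaps the antisense gene BC051537, which had at most 2 counts. For Ciita, 3.45% overlaps Dexi, with 151 to 297 counts. The library kit does not mark strand, so reads in these stretches cannot be told apart. H2-DMb1 and H2-DMb2 are close copies, with 11.3% and 10.3% of their 100-base windows found in the other gene, and reads placed in several positions were left out by the authors.

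At day 0 the levels per kilobase of exon spanned the pathway from its most abundant chaperone to its least abundant modulator chain. Cd74 stood at 581 ± 102 CPM per kb (SD, n = 4), above every other member in each library. H2-Eb1 followed at 158 ± 16.96 CPM per kb and H2-Ab1 at 153 ± 19.4 CPM per kb, and their ranges overlapped. H2-Aa was at 99.9 ± 12.6 CPM per kb, below both without overlap. The peptide exchange genes came next, H2-DMb1 at 30.04 ± 3.05 CPM per kb, H2-DMa at 13.9 ± 1.30 and H2-DMb2 at 11.96 ± 2.003, the last 2 of them overlapping. H2-Ob was at 5.21 ± 1.86 CPM per kb, Ciita at 2.14 ± 0.367 and H2-Oa at 1.21 ± 0.362, with no overlap between neighbours in this order. On days 7, 14 and 21 the mean of Ciita exceeded that of H2-Ob (3.14 ± 0.788 against 2.61 ± 1.65 CPM per kb at day 7), with overlapping ranges. The rest of the order stayed in place apart from H2-Ab1 and H2-Eb1, which overlapped on each day. H2-Ea-ps, the broken alpha chain gene that leaves C57BL/6 mice without a surface H2-E molecule, had at most 2 counts in any library, although its partner H2-Eb1 was among the most abundant members.

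**Figure D1:**
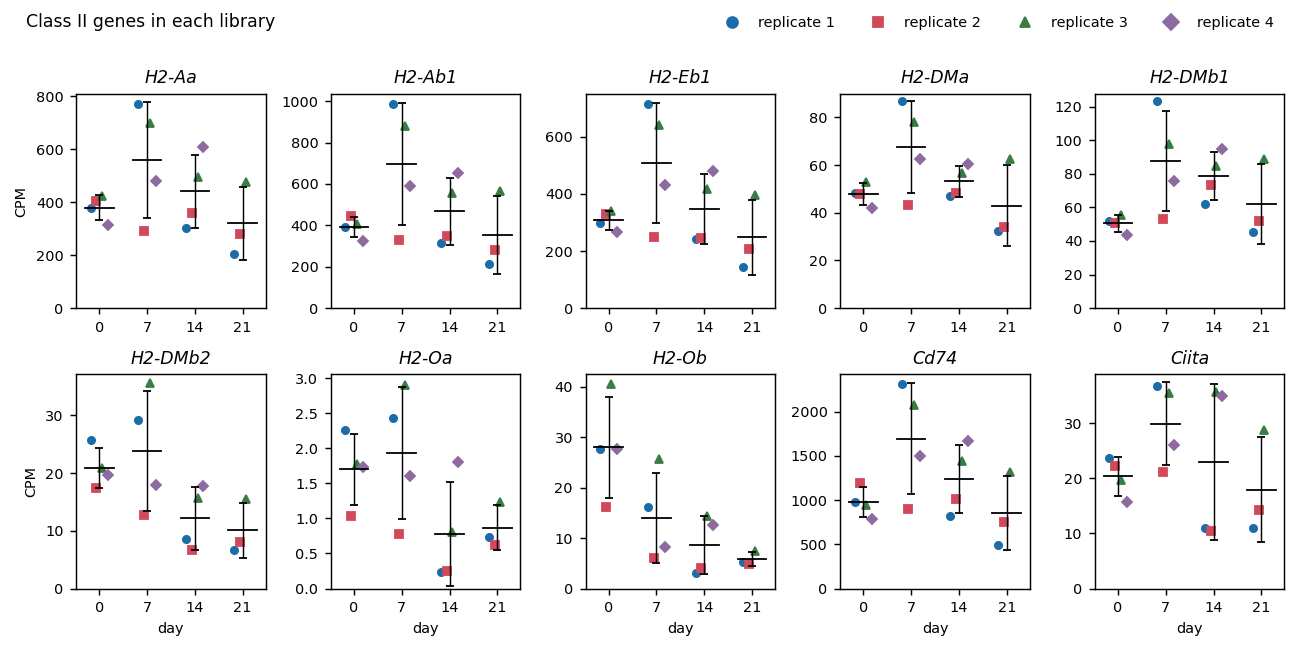
CPM of each class II gene (vertical axes, linear from 0) in each of the 15 libraries by day after bleomycin (horizontal axes), with a horizontal bar for the mean and an error bar of 1 SD (n = 4, 4, 4 and 3). Day 7 replicates 1 and 3 sat above replicates 2 and 4 in all 10 panels, and H2-Ob was the gene whose day 14 and day 21 libraries all lay below the day 0 libraries.

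The comparison with day 0 asks how presentation transcripts changed as injury passed into fibrosis. H2-DMb1 rose at days 7 and 14, H2-Ob fell at days 14 and 21, the other 8 members did not pass on any day, and the share of members called was not above that of all genes. A gene was called when its edgeR quasi-likelihood test had a Benjamini-Hochberg adjusted p under 0.05 over all tested genes and its fold change was over 1.5. This gave 1 of 10 members at day 7 where 16.1% of all tested genes were called, 2 of 10 at day 14 against 23.1%, and 1 of 10 at day 21 against 22.5%. Leaving out 1 library gave 0 to 5 members at day 7, and 1 to 2 at days 14 and 21. Over all genes these fits called 2053 to 2865 at day 7, 3406 to 4115 at day 14 and 3349 to 3822 at day 21. The median log2 fold change of the members was 0.56 at day 7, 0.17 at day 14 and -0.22 at day 21, beside 0.01, 0.02 and 0.02 over all genes. By direction, 8.78% of all genes were higher and 7.36% lower at day 7, 12% and 11.2% at day 14, and 12.4% and 10.1% at day 21. The 3 comparisons share the day 0 libraries. At day 7 no member had all 4 libraries above or below day 0, where 17.6% of all genes did upward and 13.2% downward, and at day 21 no member did so upward, beside 19.4%.

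Among the presenting chains, H2-Aa, the alpha chain of H2-A, had 377, 405, 422 and 313 CPM in day 0 replicates 1 to 4 and 772, 290, 698 and 482 CPM at day 7. It had 302, 361, 496 and 609 CPM at day 14 and 204, 280 and 475 CPM at day 21. The later libraries fell on both sides of the day 0 values on each day. Its log2 fold change from day 0 was 0.56 (SE 0.30, edgeR adjusted p = 0.183) at day 7, 0.22 (SE 0.30, adjusted p = 0.607) at day 14 and -0.25 (SE 0.33, adjusted p = 0.61) at day 21, none of which passed.

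H2-Ab1, the beta chain of H2-A, had 394, 444, 406 and 325 CPM at day 0, and 986, 330, 881 and 591 CPM at day 7. Day 7 replicates 1, 3 and 4 exceeded every day 0 library while replicate 2 lay within their range. Without day 0 replicate 4, day 7 replicate 2 lay below the other day 0 libraries. The log2 fold change at day 7 was 0.83 (95% interval 0.10 to 1.56, edgeR adjusted p = 0.0863), which did not pass. H2-Ab1 was at 314, 349, 554 and 651 CPM at day 14 and at 211, 279 and 568 CPM at day 21, overlapping day 0 on both days, with log2 fold changes of 0.25 and -0.15.

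H2-Eb1, the beta chain of H2-E, was at 298, 329, 339 and 266 CPM at day 0 and at 713, 248, 642 and 430 CPM at day 7. The same 3 day 7 libraries exceeded day 0 and the same one did not. Its log2 fold changes were 0.72 (SE 0.34, edgeR adjusted p = 0.126) at day 7, 0.17 at day 14 and -0.31 at day 21.

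Cd74, the invariant chain that chaperones new class II molecules, had 981, 1195, 942 and 781 CPM at day 0 and 2312, 900, 2070 and 1501 CPM at day 7. Again day 7 replicate 2 alone lay within the day 0 range. Without day 0 replicate 4, day 7 replicate 2 lay below the other day 0 libraries. The log2 fold change was 0.80 (95% interval 0.12 to 1.48, edgeR adjusted p = 0.0788), so the difference did not pass. Cd74 had 823, 1013, 1444 and 1670 CPM at day 14 and 493, 753 and 1320 CPM at day 21. At day 14, 2 libraries lay above the day 0 range and 2 within it, and day 21 lay on both sides of it, with log2 fold changes of 0.34 and -0.19. Without day 0 replicate 4, day 14 replicate 1 lay below the other day 0 libraries as well. Without day 7 replicate 2, H2-Ab1, H2-Eb1, H2-DMa, H2-DMb1 and Cd74 were all called higher at day 7, 5 of 10 members in place of 1, where 2175 of 17425 genes were called in either direction.

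Ciita, the transactivator on which the other members depend in most cells, had 23.8, 22.3, 19.7 and 15.8 CPM at day 0 and 36.8, 21.2, 35.6 and 26.1 CPM at day 7. At day 14 it had 11.0 and 10.5 CPM in replicates 1 and 2 but 35.7 and 34.9 CPM in replicates 3 and 4, and at day 21 it had 11.0, 14.2 and 28.8 CPM. Both later days thus held libraries below and libraries above every day 0 library. The log2 fold changes were 0.55 (SE 0.39, edgeR adjusted p = 0.311), 0.18 (SE 0.39, adjusted p = 0.761) and -0.18 (SE 0.42, adjusted p = 0.784).

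H2-DMb1, a beta chain of the peptide exchange factor, had 52.1, 50.6, 55.7 and 43.5 CPM at day 0 and 123, 53.4, 97.7 and 75.9 CPM at day 7. Day 7 replicate 2 fell within the day 0 range and the other 3 lay above it. H2-DMb1 rose at day 7 with a log2 fold change of 0.79 (SE 0.24, edgeR adjusted p = 0.025). At day 14 it had 62.0, 73.2, 84.6 and 95.02 CPM, and all 4 libraries exceeded all 4 day 0 libraries, a separation upward found in 16.8% of all tested genes. The day 14 log2 fold change was 0.64 (SE 0.24, adjusted p = 0.0498). At day 21, with 45.3, 51.7 and 89.0 CPM, it overlapped day 0 (log2 fold change 0.30, adjusted p = 0.414).

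Both H2-DMb1 calls were close to the threshold. The day 7 call was lost without day 0 replicate 2 (adjusted p = 0.0511), day 0 replicate 4 (0.081), day 7 replicate 1 (0.107) or day 7 replicate 3 (0.0581), each by edgeR, and the H2-DMb1 day 14 call was lost in 7 of 8 fits that left out 1 library, being kept only without day 14 replicate 1 (adjusted p = 0.0431). Within the libraries of a mitochondrial share under 2.5%, the H2-DMb1 log2 fold change at day 7 was 0.75 (edgeR adjusted p = 0.0875), and within those over 3.5% it was 0.75 at day 14 (adjusted p = 0.0177). The set under 2.5% held day 0 replicates 1 and 2 and day 7 replicates 1, 2, 3 and 4. The set over 3.5% held day 0 replicates 3 and 4, the latter labelled bleomycin, and day 14 replicates 2, 3 and 4.

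H2-DMa, the alpha chain of H2-DM, had 42.1 to 53.1 CPM at day 0, 43.1 to 86.8 at day 7, 47.2 to 60.4 at day 14 and 32.4 to 62.5 at day 21, overlapping day 0 throughout. Its log2 fold changes were 0.50 (SE 0.21, edgeR adjusted p = 0.0996), 0.15 and -0.16.

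H2-DMb2, the second beta chain gene, had 25.7, 17.4, 20.8 and 19.6 CPM at day 0 and 29.3, 12.7, 35.6 and 17.9 CPM at day 7. It had 8.51, 6.63, 15.6 and 17.8 CPM at day 14 and 6.74, 8.09 and 15.6 CPM at day 21. Only 1 day 14 library overlapped day 0 and no day 21 library did, a separation downward found in 16% of all tested genes. The log2 fold change was 0.19 at day 7, -0.78 (SE 0.35, edgeR adjusted p = 0.104) at day 14 and -1.04 (SE 0.39, adjusted p = 0.0565) at day 21, and none passed. Without day 21 replicate 3 the H2-DMb2 difference at day 21 was -1.53 (edgeR adjusted p = 0.0184). Of the alternatives run, 1 of 21 called H2-DMb2 lower at day 14, the replicate block, and 6 of 19 did so at day 21.

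H2-Oa, the alpha chain of H2-DO, was scarce, with 2.27, 1.03, 1.78 and 1.73 CPM at day 0 and 2.44, 0.781, 2.91 and 1.61 CPM at day 7. At day 14 it had 0.236, 0.255, 0.801 and 1.81 CPM, and at day 21 it had 0.742, 0.627 and 1.24 CPM. Replicates 1 to 3 of day 14 lay below all day 0 libraries and replicate 4 lay among them. The log2 fold changes of H2-Oa were 0.19 (SE 0.53), -1.12 (SE 0.56, edgeR adjusted p = 0.138) and -0.96 (SE 0.61, adjusted p = 0.253), and without day 14 replicate 4 the day 14 value was -1.95 (adjusted p = 0.0141).

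H2-Ob, the beta chain of H2-DO, had 27.7, 16.1, 40.6 and 27.7 CPM at day 0 and 16.1, 5.97, 25.7 and 8.32 CPM at day 7. At day 14 it had 3.13, 4.15, 14.5 and 12.6 CPM, and at day 21 it had 5.26, 4.79 and 7.35 CPM. All 4 day 14 and all 3 day 21 libraries lay below every day 0 library, where 14.4% and 16% of all tested genes were separated downward. H2-Ob fell by 1.70 on the log2 scale at day 14 (SE 0.49, edgeR adjusted p = 0.0148), to 0.307 of the day 0 level, and by 2.27 at day 21 (SE 0.56, adjusted p = 0.00673), to 0.207 of it. At day 7 the log2 fold change was -0.997 (SE 0.48, adjusted p = 0.138) and did not pass, although it did without day 7 replicate 3 (-1.47, adjusted p = 0.0478). With the mitochondrial share in the fit the H2-Ob value at day 7 was -0.40 (adjusted p = 0.686), and within the libraries of a share under 2.5% it was -0.66 (adjusted p = 0.372).

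The fall of H2-Ob held in every fit that left out 1 library. Without day 0 replicate 4 the H2-Ob log2 fold change was -1.73 (edgeR adjusted p = 0.0273) at day 14 and -2.31 (adjusted p = 0.0125) at day 21, and within the libraries of a mitochondrial share over 3.5% it was -1.73 at day 14 (adjusted p = 0.0267). That set held day 0 replicates 3 and 4 and day 14 replicates 2, 3 and 4. It left out day 0 replicate 2, the lowest day 0 library for H2-Ob, and kept day 0 replicate 4, which is labelled bleomycin. No within-share value was computed for day 21.

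**Figure D2:**
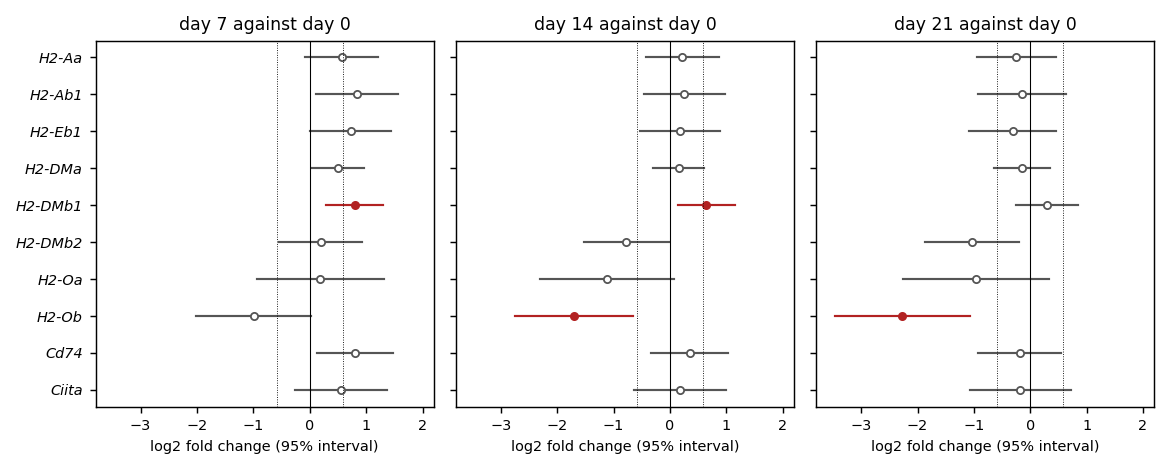
Log2 fold change of each class II gene against day 0 (horizontal axes) at day 7, day 14 and day 21, with the 95% interval of the edgeR fit as a line. Filled red points are the calls (H2-DMb1 at days 7 and 14, H2-Ob at days 14 and 21), open points are genes that did not pass, and dotted lines mark the fold change threshold of 1.5 in either direction.

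Between the bleomycin days, the log2 fold changes of all 10 members were negative at day 14 against day 7 (median -0.50) and at day 21 against day 7 (median -0.99, range -1.27 to -0.50), beside medians of 0.00 over all genes. None was called by edgeR, where 6% and 9.54% of all genes were, with 2 and 7 members at an unadjusted p under 0.05 beside 4372 and 5238 of all 17457 genes. DESeq2 called 0 and 5 members in these comparisons, where it called 1642 of 18829 and 2250 of 19464 genes, and limma voom called 0 in both, beside 995 and 1669 of 17457 genes. The lowest edgeR adjusted p at day 21 against day 7 was 0.0511, for H2-DMb2, and without day 21 replicate 3 or without day 7 replicate 2 the count was 7 and 6 of 10, where 1822 of 17898 and 1510 of 17425 genes were called. Day 21 against day 14 gave no call among the members by any of the 3 tools, with 0 members beside 1714 of 17457 genes at an unadjusted p under 0.05, and 0% of all genes called by edgeR.

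At day 7 the class II genes varied more between libraries than most genes did, and on the other days this differed by member. The median SD of log2 CPM over the 10 members was 0.212 on day 0 and then 0.656, 0.512 and 0.622 on days 7, 14 and 21, while the median gene with a mean of at least 5 CPM had 0.187, 0.153, 0.223 and 0.196. At day 7 the SD of Ciita, the lowest, lay at the 92nd percentile of such genes and that of H2-Ob at the 99.3rd. H2-Oa, with 4 to 53 counts a library, lies below that minimum and its spread holds more counting noise. The other 9 members spanned percentiles 30.1 (H2-DMa) to 95.8 (H2-Ob) at day 0, 34.2 (H2-DMa) to 99.2 (H2-Ob) at day 14 and 73.98 (H2-Ob) to 96.2 (H2-Eb1) at day 21. The same libraries carried the extremes. Day 7 replicates 1 and 3 held the highest and second highest value of all 10 members and replicate 2 the lowest of all 10. Day 14 replicates 3 and 4 held the highest 2 values of all 10 members, and replicate 1 the lowest of 8. Day 21 replicate 3 was highest for all 10.

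Summed over H2-Aa, H2-Ab1, H2-Eb1 and Cd74, the share of a library's counts was 0.202%, 0.238%, 0.212% and 0.171% at day 0 and 0.475%, 0.178%, 0.434% and 0.296% at day 7. It was 0.165%, 0.191%, 0.295% and 0.345% at day 14 and 0.107%, 0.151% and 0.277% at day 21. The 95% Wilson intervals, which cover counting error only, were narrow beside these differences, for example 0.472% to 0.478% in day 7 replicate 1 and 0.176% to 0.180% in day 7 replicate 2. Cd74 per H2-Ab1 count lay between 2.32 and 2.91 in all 15 libraries, while H2-Aa per H2-Ab1 count was 0.911 to 1.04 at day 0 and 0.783 to 0.878 at day 7, with all 4 day 7 libraries below all day 0 libraries. The H2-Aa ratio was picked out after its values were seen and has no test. As a description over 15 libraries that share depth, scaling and tissue composition, the Pearson r of deviations from the day mean was 0.98 to 0.99 for the pairs among these 4 genes and 0.658 to 0.994 over all 45 pairs of members.

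**Figure D3:**
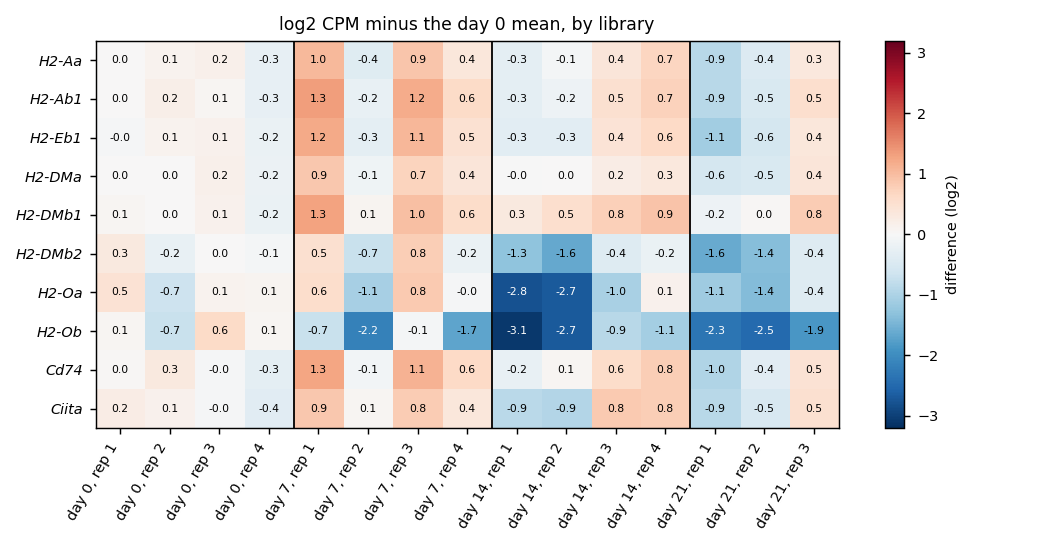
Difference of log2 CPM from the day 0 mean for each class II gene (rows) in each library (columns, grouped by day), with red for higher and blue for lower and the value printed in each cell. Most columns keep 1 color from H2-Aa to H2-DMa and again at Cd74 and Ciita, while H2-Ob and most H2-DMb2 cells at days 14 and 21 are blue.

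The beta chains of H2-DM, and a chain each of H2-DO and H2-DM, which oppose each other in peptide loading, were set against each other within libraries. These ratios were chosen after the gene values were seen, so they are a description, and none of the 6 exact permutation tests of the log2 ratios against day 0 passed (two-sided, adjusted p = 0.0571 in each). With 3 libraries at day 21 the exact test cannot go below p = 0.0571, and with 4 at days 7 and 14 not below 0.0286. Before adjustment every ratio was at its lowest possible p except H2-DMb1 over H2-DMb2 at day 7 (exact p = 0.0571). Not passing therefore does not show that a ratio was unchanged. H2-DMb1 per H2-DMb2 was 2.03, 2.91, 2.68 and 2.22 at day 0 and 4.21, 4.21, 2.74 and 4.24 at day 7. It was 7.29, 11.0, 5.42 and 5.34 at day 14 and 6.72, 6.39 and 5.71 at day 21, so all day 14 and day 21 libraries lay above all day 0 and day 7 libraries. H2-Ob per H2-DMa was 0.571, 0.338, 0.764 and 0.657 at day 0 and 0.186, 0.139, 0.329 and 0.133 at day 7. It was 0.0663, 0.0856, 0.256 and 0.208 at day 14 and 0.162, 0.141 and 0.118 at day 21. All 11 libraries after bleomycin were below the lowest day 0 value of this ratio, day 7 replicate 3 only narrowly.

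**Figure D4:**
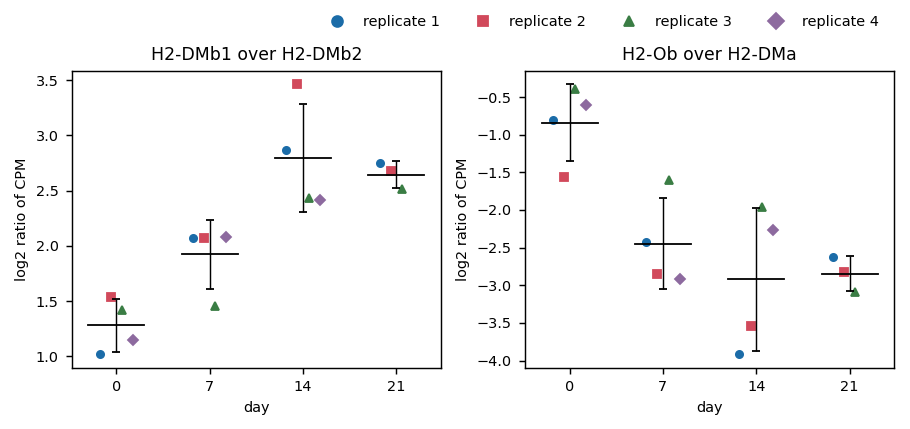
Log2 ratio of CPM within each library (vertical axes) by day after bleomycin, for H2-DMb1 over H2-DMb2 and for H2-Ob over H2-DMa, with the mean and 1 SD in black. The first ratio averaged 1.28 at day 0 and 2.80 at day 14, and the second averaged -0.84 and -2.92.

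Of the machinery around the pathway, the lysosomal proteases named here rose on at least 2 of the days. Among 13 antigen processing genes tested, 6 rose and 0 fell at day 7, 8 rose and 0 fell at day 14, and 7 rose and 0 fell at day 21, beside 8.78%, 12% and 12.4% of all genes higher, with medians of 0.42, 0.70 and 0.65 on the log2 scale. Ctss, the cathepsin that cuts the invariant chain, went from 175 to 222 CPM at day 0 to 471 to 815 at day 7, 950 to 1537 at day 14 and 794 to 1483 at day 21, with no overlap with day 0. Its log2 fold changes were 1.54 (SE 0.21), 2.64 (SE 0.22) and 2.5 (SE 0.23), with edgeR adjusted p-values of 2.14e-04, 1.81e-06 and 4.84e-06. Lgmn, an asparaginyl endopeptidase of the lysosome, rose by 1.45, 1.99 and 2.07, Ctsd by 1.17, 1.96 and 1.41, and Ctsb by 1.17, 1.67 and 1.52. Cd63, a tetraspanin of the class II compartment, rose by 1.01, 1.54 and 1.36. Macrophage markers, given further on, rose on the same days. Ctsl had a log2 fold change of 0.28 at day 7 and rose by 1.30 and 1.66 at days 14 and 21.

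Of 18 enhanceosome genes and inducers of Ciita, 1 rose at day 7, 1 rose and 1 fell at day 14, and 2 fell at day 21, with medians of 0.07, -0.08 and -0.13, where 16.1%, 23.1% and 22.5% of all genes were called in either direction. Rfx5, a subunit of the X box factor RFX, had log2 fold changes of 0.11, -0.19 and 0.06, none passing. Ifngr2, a chain of the interferon-gamma receptor, rose by 0.65 and 0.81 at days 7 and 14. Prdm1, a repressor of Ciita in plasma cells, fell by 0.76 and 0.68 at days 14 and 21. Irf1, an activator of a Ciita promoter, fell by 0.68 at day 21.

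Of 16 interferon-gamma response genes tested, 4 rose at day 7, 4 rose and 2 fell at day 14, and 3 rose and 3 fell at day 21. Over all genes 16.1%, 23.1% and 22.5% were called in either direction on these days. The chemokine genes Cxcl9 and Cxcl10 rose by 3.51 and 3.01 at day 7, by 2.27 and 2.08 at day 14, and by 2.42 and 2.00 at day 21. Socs1, a feedback inhibitor, rose by 1.44 and 0.87 at days 7 and 14, and the GTPase Iigp1 by 0.93, 0.69 and 0.91 on the 3 days. Ido1 fell by 1.66 at both day 14 and day 21, and Gbp7 fell by 0.62 at day 14. Ifng itself had at most 0.254 CPM in any library and was not tested. Of 9 class I genes, 1 rose at day 7, namely H2-K1 (0.76, edgeR adjusted p = 0.00325), and none was called at days 14 and 21. The same all-gene shares stand beside these class I counts.

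Of 14 genes for costimulation and the CD4 T cell side, 2 rose on each day, and 0, 1 and 2 fell at days 7, 14 and 21. Over all genes 8.78%, 12% and 12.4% were higher and 7.36%, 11.2% and 10.1% lower on these days. Cd80 rose by 1.75, 1.58 and 1.80 and Cd86 by 1.2, 1.41 and 1.35, both ligands of CD28. Icosl, the ligand of ICOS, fell by 0.82 and 0.78 at days 14 and 21, and Cd40lg fell by 2.04 at day 21. Cd4, the coreceptor for class II, had log2 fold changes of 0.62, -0.10 and -0.29, none passing.

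Because whole lung was measured, fewer cells of a type and less RNA per cell cannot be told apart, and markers of the cells that carry class II were set beside the members. Of 12 B cell markers, 0 were called at day 7, 8 fell at day 14 and 11 fell at day 21. Over all genes 7.36%, 11.2% and 10.1% were called lower on these days. The B cell markers had median log2 fold changes of -0.56, -1.44 and -1.87. Their summed level was 150 to 246 CPM at day 0, 62.1 to 210 at day 7, 38.4 to 135 at day 14 and 48.4 to 75.3 at day 21. Cd79b fell by 1.5 and 2.24, Pax5 by 1.57 and 2.09, Cd79a by 1.70 and 1.94, Fcrla by 1.68 and 1.84, and Ms4a1 by 1.5 and 2.34 at days 14 and 21, sizes beside which H2-Ob fell by 1.70 and 2.27. Ms4a1 was above 0 in every library.

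Within days, H2-Ob followed the B cell markers: over 15 libraries the deviations from the day mean of log2 CPM had Pearson r = 0.93 and Spearman rho = 0.939 (exact permutation within days, two-sided p = 0.0016 and 0.00135, adjusted p = 0.0136 and 0.0115 over 17 lists compared), and r = 0.895 without the 2 libraries farthest from the median. The lists of costimulation (r = 0.775), class I (0.732), interferon-gamma response (0.744) and thymocyte genes (0.69) also passed for H2-Ob by this exact test, with adjusted p-values of 0.00574, 0.0325, 0.0445 and 0.0325, and the other 12 did not by Pearson r. By Spearman rho the T cell (0.607) and dendritic cell (0.632) lists passed as well, with exact permutation adjusted p-values of 0.0288 and 0.045. The thymocyte list rests on few counts, at most 5.33 CPM in sum, and the costimulation list holds Icosl. The part of B cell abundance in the fall of H2-Ob was not tested.

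Markers of interstitial and monocyte-derived macrophages moved the other way. Of 12, 6 rose at day 7, 9 at day 14 and 8 at day 21, and none fell. Over all genes 8.78%, 12% and 12.4% were called higher on these days. C1qb, C1qa and C1qc, the subunits of complement C1q, rose by 2.49, 2.23 and 2.31 at day 7 and by 3.32, 2.85 and 3.06 at day 21. Ms4a7 rose by 2.1 and 3.01 at days 7 and 21, and Apoe by 1.96 and 1.94 at days 14 and 21. The summed level was 1081 to 1322 CPM at day 0, 2056 to 3080 at day 7, 2737 to 7912 at day 14 and 3326 to 5777 at day 21, all later libraries above day 0. The library highest in these markers, day 14 replicate 1 at 7912 CPM, was lowest of its day in 8 of 10 class II genes, and day 21 replicate 1 at 5777 CPM was lowest of its day in 8 as well. Day 7 went the other way, since replicate 1, highest of its day at 3080 CPM, was highest in 7 class II genes and second highest in 3.

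Of 12 dendritic cell markers, 5 rose and 1 fell at day 7, 2 rose and 1 fell at day 14, and 3 rose and 2 fell at day 21. Over all genes 16.1%, 23.1% and 22.5% were called in either direction on these days. Fscn1, of mature dendritic cells but also of other cells, rose by 2.08, 2.44 and 2.32, and Batf3 by 1.28, 1.35 and 1.52. Clec10a rose by 1.58 and 1.37 at days 7 and 21, and the chemokine gene Ccl22 by 1.82 at day 7, while Clec9a fell by 1.09, 1.26 and 1.13. Batf3, Clec9a and Xcr1 are all known from the cross-presenting subset, and Xcr1 had log2 fold changes of 1.23, 0.0017 and -0.57, none passing. Siglech, of plasmacytoid cells, fell by 2.05 at day 21. The summed level was 154 to 184 CPM at day 0, 185 to 278 at day 7, 175 to 223 at day 14 and 166 to 254 at day 21. Day 7 replicates 1 and 3, the high class II libraries, had 263 and 278 CPM of these markers against 185 and 201 in replicates 2 and 4, and 168 and 210 CPM of B cell markers against 81.9 and 62.1. Day 21 replicate 3 was highest of its day in both lists, at 254 and 75.3 CPM. At day 14 the lists differed: replicates 3 and 4, the high class II libraries, had 223 and 195 CPM of dendritic cell markers against 213 and 175 in replicates 1 and 2, but 135 and 120.3 CPM of B cell markers against 38.4 and 50.7. As log2 deviations from the day mean, the sum of H2-Aa, H2-Ab1, H2-Eb1 and Cd74 had Pearson r = 0.721 with B cell markers. It had r = 0.693 with dendritic cell, 0.6 with alveolar type 2 and 0.923 with class I genes. With interstitial and alveolar macrophage markers r was -0.181 and -0.551. The part of these cells in the spread of the class II genes was not tested.

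**Figure D5:**
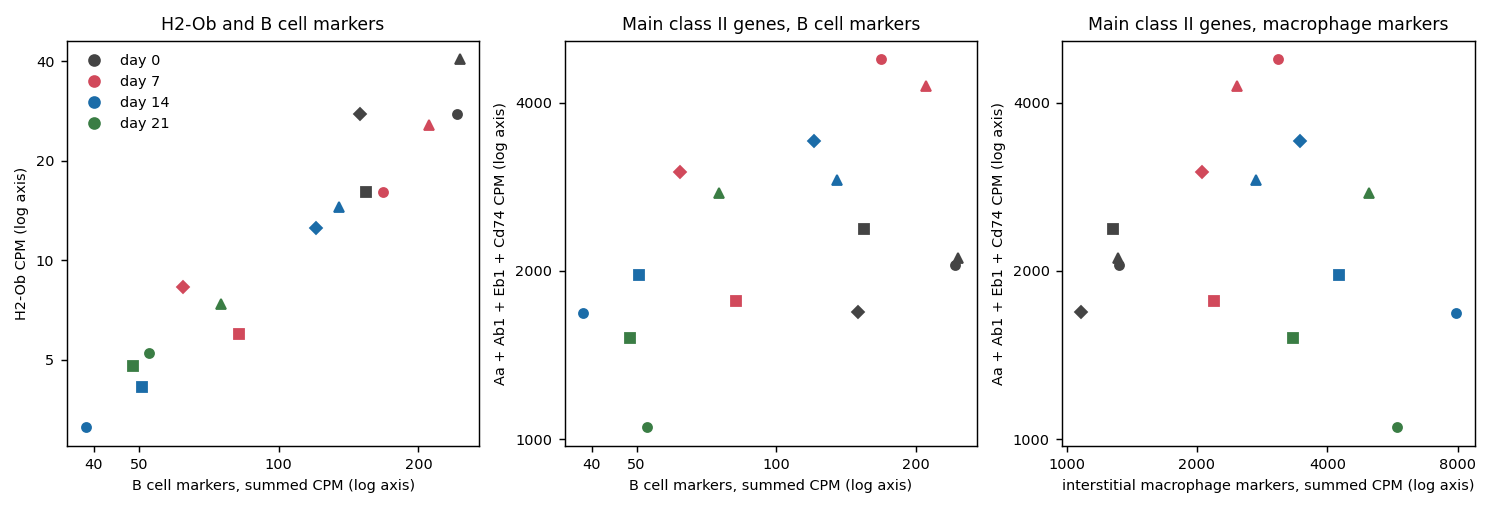
Levels in the 15 libraries on log axes, with color for the day and shape for the replicate: H2-Ob against the summed CPM of 12 B cell markers, and the sum of H2-Aa, H2-Ab1, H2-Eb1 and Cd74 against the B cell markers and against 12 interstitial and monocyte-derived macrophage markers. H2-Ob and the B cell markers decline together, while in the macrophage panel the 2 highest points are day 7 replicates 1 and 3 and the 2 farthest right, day 14 replicate 1 and day 21 replicate 1, lie in the lower part.

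Other lists moved as follows, beside 8.78%, 12% and 12.4% of all genes higher and 7.36%, 11.2% and 10.1% lower at days 7, 14 and 21. Of 10 alveolar type 2 markers, 0 were called at day 7, 5 fell at day 14 and all 10 fell at day 21. Sftpc, surfactant protein C, fell by 0.99 and fell by 2.39 at days 14 and 21, and the summed level went from 30280 to 40530 CPM at day 0 to 5384 to 11470 at day 21. Of 12 alveolar macrophage markers, 2 rose and 4 fell at day 7, 3 rose and 4 fell at day 14, and 2 rose and 5 fell at day 21. The resident cell genes Fabp1, Krt79 and Ear1 had log2 fold changes of -5.28, -4.49 and -2.79 at day 14, while Marco, Cd200r4 and Itgax rose by 2.44, 2.06 and 1.30. Marco had 18.96 to 29.7 CPM at day 0 and a lowest, median and highest of 21.1, 43.5 and 434 CPM at day 14, so 1 library stood far above the others. Of 10 T cell markers, 0 were called at day 7, 4 fell at day 14, and 1 rose and 1 fell at day 21. Of 8 endothelial markers, 4, 3 and 1 fell on the 3 days. Ptprc, which marks all leukocytes, had log2 fold changes of -0.39, -0.40 and -0.50, none passing.

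Markers listed for neighbouring tissue were uneven. Cardiac muscle markers summed to 17.7 to 723 CPM, adipocyte markers to 0.228 to 127 CPM and lymph node stroma markers to 80.6 to 212 CPM over all libraries, and of the 6 thymocyte genes only Cd8b1 was tested, with the summed level at 0.627 to 5.33 CPM. Of the stroma genes, Ccl21a had 45.4 to 189 CPM, while Glycam1 had 0 counts in 14 libraries and Madcam1 at most 0.309 CPM. Cr2 is also in the B cell list and Cd8b1 in the T cell list. The stroma and thymocyte sums therefore do not measure lymph node or thymus tissue. Of the tested genes 2 of 6 cardiac and 4 of 4 adipocyte markers fell at day 14, 3 adipocyte markers fell at day 21, and of 3 lymph node stroma genes 1 rose at day 14 and 1 rose and 1 fell at day 21. Over all genes 12% and 12.4% were higher and 11.2% and 10.1% lower at days 14 and 21. The part of these markers in the class II levels was not tested.

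The genes whose log2 CPM ran most like a member over the 15 libraries were searched among 11794 genes with a mean of at least 5 CPM, as a description. For H2-Aa they were B2m (r = 0.961), the light chain of class I, H2-D1 (0.899), Bst2 (0.893), Rnpep (0.878) and Rinl (0.876). For Cd74 they were B2m (0.957), H2-D1 (0.929), Rnpep (0.928), Rasgrp1 (0.89) and Chid1 (0.889). For Ciita they were Kmo (0.915), Pml (0.913), Hdhd2 (0.896), Ddx58 (0.879) and Rnpep (0.874). For H2-Ob they included Siglecg (0.969), a surface protein of B cells, Ralgps2 (0.953), Icosl (0.946) and Pnkd (0.941). No gene stood in both the H2-Ob and the Ciita, H2-Aa or Cd74 lists.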

How the data were processed

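Polyadenylated RNA from whole lung was sequenced in 15 libraries grouped by the day and replicate in their titles. Per the submitters' processing notes and the study's methods, the authors trimmed reads, aligned them to mm10 (GRCm38) with HISAT2 2.1.0, left out reads with several positions and counted reads per Ensembl gene with HTSeq 0.6.0, with DESeq2 1.40.2 for their own tests. The deposited values are raw counts with no normalization, and the annotation release and strand setting are not given in the sources used here. The library kit does not mark strand. Symbols were matched through GENCODE M21, which left 73 genes with 0.00889% of counts unmatched.

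Genes were kept by filterByExpr, scaled by TMM and tested with edgeR 4.0.16 (quasi-likelihood, 11 residual degrees of freedom, all 15 libraries in 1 fit, day as the only term) in R 4.3.3. DESeq2 1.42.0 and voom of limma 3.58.1 were alternatives. The common biological coefficient of variation was 22.8%. Calls needed an adjusted p under 0.05 over all 17457 genes and a fold change over 1.5. The pipeline was tested on simulated data. The genes named are the 10 members, the 5 genes most like each of Ciita, H2-Aa, Cd74 and H2-Ob, up to 6 called genes per list (largest change at day 14 first), and Rfx5, Ctss, Ifng, Irf1, Ptprc and Cd4. Some of the genes this rule gives for the marker lists are covered by the counts alone or are not reported here. Members and lists were chosen with earlier results of these data known. Marker sums and per-library levels are CPM on the TMM scale, and log2 deviations from day means were compared with the lists by exact permutation of libraries within days (82944 arrangements). Alternatives covered scaling, filters, the replicate block, the mitochondrial share, thresholds, tools and leaving out each library.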

Additional observations from a re-analysis of the deposited data

How the results depend on the processing

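Directions were stable for the calls of H2-Ob and H2-DMb1 and unstable for small differences. At day 7 against day 0 the count of members called, 1 of 10, became 3 with no filter and with the 2 groups alone, 2 with the replicate block and 0 once the mitochondrial share entered the fit, under glmTreat and within libraries of a low mitochondrial share. In that order, the fits called 2909 of 32890, 3054 of 16207, 2915 of 17457, 1269 of 17457, 703 of 17457 and 2139 of 16708 genes. At day 14 against day 0 the count of 2 became 1 with total count scaling, RLE factors, TMM without mitochondrial and immunoglobulin genes, a mean of at least 1 CPM, the mitochondrial covariate and limma voom, each losing H2-DMb1, and 0 under glmTreat. In that order, the fits called 3990, 4028 and 4015 of 17457, 3673 of 15349, and 4187, 3980 and 1755 of 17457 genes. At day 21 against day 0 the count of 1 became 2 with no filter, TMM without mitochondrial and immunoglobulin genes, the replicate block, the 2 groups alone and DESeq2, each adding H2-DMb2. In that order, the fits called 4081 of 32890, 3927 and 3752 of 17457, 3618 of 16756 and 4316 of 20102 genes. At day 14 against day 7 the count of 0 became 1 with no filter, and at day 21 against day 7 it became 5 with no filter and with DESeq2, and 1 with TMM without mitochondrial and immunoglobulin genes and with the replicate block. In that order, the fits called 1283 and 1851 of 32890, 2250 of 19464, and 1671 and 1651 of 17457 genes. The cause of these changes in the member counts was not tested.

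Leaving out each library gave 0 to 5 calls at day 7 against day 0 (5 without day 7 replicate 2), 1 to 2 at day 14 and at day 21 against day 0 (2 at day 21 without day 21 replicate 3), 0 to 1 at day 14 against day 7 (1 without day 14 replicate 4), 0 to 7 at day 21 against day 7 and 0 to 0 at day 21 against day 14. The H2-Ob call at day 14 was lost only under glmTreat (adjusted p = 0.0728), and that at day 21 under no alternative run.

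Nothing in the labels says that a replicate number marks shared animals or days. Same-numbered deviations correlated at -0.244 to 0.397, and some but not all libraries correlated best with their own number. Such correlations cannot decide whether the numbers pair the libraries. The replicate block added H2-Ob at day 7 (-1.07, adjusted p = 0.0341) and H2-DMb2 at day 14 (-0.86) while keeping H2-DMb1.

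Uncalled log2 fold changes near 0 changed sign as single libraries were left out, and the fits without 1 library gave the following ranges. Against day 0 at day 7, H2-DMb2 spanned -0.066 (without day 7 replicate 3) to 0.40 and H2-Oa -0.080 (without day 7 replicate 3) to 0.45. At day 14, H2-Eb1 spanned -0.028 (without day 14 replicate 4) to 0.29, and Ciita, -0.031 with limma voom, spanned -0.12 (without day 14 replicate 3) to 0.40. At day 21, H2-Ab1 spanned -0.72 to 0.079, Cd74 -0.69 to 0.056 and Ciita -0.74 to 0.044, each highest without replicate 1, and H2-DMb1 spanned -0.099 (without replicate 3) to 0.45. H2-DMb1 at day 14 against day 7 spanned -0.33 to 0.059 (without day 7 replicate 1), and H2-Oa at day 21 against day 14 spanned -0.20 (without day 21 replicate 3) to 0.99. Over all genes, the counts of calls that moved by more than 1.5 times were those of glmTreat (703 in place of 2818 at day 7, 1755 of 4040 at day 14 and 1754 of 3924 at day 21 against day 0, 14 of 1048 at day 14 against day 7 and 176 of 1665 at day 21 against day 7), those with the mitochondrial covariate (1269, 218 and 942 at day 7 against day 0 and at days 14 and 21 against day 7), 4365 at day 7 against day 0 with no fold change threshold, 1642 by DESeq2 at day 14 against day 7, and 106 by DESeq2 and 37 with no filter in place of 0 at day 21 against day 14. Leaving out 1 library moved these counts by more than 1.5 times as well: at day 14 against day 7 to 522, 464, 340, 348 and 503 without day 7 replicates 1, 3 and 4 and day 14 replicates 2 and 3, at day 21 against day 7 to 986, 1032, 1096 and 966 without day 7 replicates 1, 3 and 4 and day 21 replicate 1, and at day 21 against day 14 to 127, 3 and 24 without day 14 replicate 1 and day 21 replicates 2 and 3.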
